A study of Mus musculus with 2 samples.

Results

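Mir21a, Mir132 and Mir212 are 3 microRNA (miRNA) genes that have been reported to respond to corticotropin (ACTH), angiotensin or cyclic AMP in adrenal cells. They were taken by gene name in the GENCODE M21 annotation, and all 3 were found among the 2202 miRNA genes of the deposited tables. The samples were adrenal glands of female 5xFAD/CAST mice, adult and between 8 and 10 months old. 5xFAD mice carry mutated human amyloid precursor protein and presenilin transgenes under a neuronal promoter and serve as a model of Alzheimer's disease, and CAST names an inbred castaneus strain. Whether these animals carried the transgenes is not stated in the labels. The study has 1 group of 2 libraries, called biological replicates 1 and 2, so no treatment or stimulus was compared. They come from separate biosamples under a common donor identifier, and nothing says that they are separate animals, so differences between them may be technical.

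Corticotropin is the pituitary hormone that drives glucocorticoid synthesis in the adrenal cortex through its receptor, cyclic AMP and protein kinase A. Cyclic AMP activates the transcription factor CREB, and the transcript that carries Mir212 and Mir132 is a known CREB target in neurons and other cells. miR-132 has been reported to lower StAR, the protein that moves cholesterol into mitochondria for steroid synthesis. miR-21 is abundant in many cell types, is induced by growth and inflammatory signals, and was reported to rise with angiotensin in adrenocortical cells, where it raised aldosterone output and growth. A miRNA is cut from a hairpin precursor whose 5p and 3p arms can each give a mature strand, and pairing with target transcripts rests mainly on the seed, bases 2 to 8 of the mature strand.

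The mature strands are shown because miR-132 and miR-212 have the same seed on their 3p arms and miR-21a has another. Capitals mark the seed, sequences run 5′ to 3′, and all are from RefSeq on GRCm38.p6, the build also called mm10.
mmu-miR-132-3p: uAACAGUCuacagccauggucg
mmu-miR-212-3p: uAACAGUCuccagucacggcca
mmu-miR-132-5p: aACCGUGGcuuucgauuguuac
mmu-miR-212-5p: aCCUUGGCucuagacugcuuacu
mmu-miR-21a-5p: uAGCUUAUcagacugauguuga
mmu-miR-21a-3p: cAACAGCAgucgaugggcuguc

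The 3p strands of miR-132 and miR-212 are both 22 bases long and are the same at 17 positions. Counted from the 5′ end, with the base of miR-132-3p first and that of miR-212-3p last, they differ by A10C, C14U, U17C, U20C and G22A. All 5 differences lie outside the seed. Among the 1738 mature miRNAs in the RefSeq table, no other strand has the seed AACAGUC. The 5p strands of the pair have different seeds, ACCGUGG and CCUUGGC, which no other mature miRNA in the table shares. The seed AGCUUAU of miR-21a-5p is found in 1 other mature strand, miR-21c. That strand comes from Mir21c on chromosome 8, which had 0 reads in replicate 1 and 1 read in replicate 2. Mir21b, a further copy on chromosome 3 whose seed is AGUUUAU, had 0 and 2 reads.

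The hairpins of Mir132 and Mir212 are printed because a read from either arm counted toward the gene, so the arms were not told apart. Capitals mark the mature strands, the 5p strand first.
Mir132: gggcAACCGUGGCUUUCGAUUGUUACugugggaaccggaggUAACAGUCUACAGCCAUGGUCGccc
Mir212: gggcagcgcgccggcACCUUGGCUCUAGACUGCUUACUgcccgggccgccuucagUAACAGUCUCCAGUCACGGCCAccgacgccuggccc

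The Mir132 hairpin has 66 bases, 57.6% of them G or C, and a predicted folding energy of -37.2 kcal per mol (RNAfold). The Mir212 hairpin has 91 bases, 69.2% G or C, and a folding energy of -41.5 kcal per mol. Mir212 is thus richer in G and C than most miRNA hairpins of the gland, as 11 of the 356 detected genes, itself included, reached its content, against 83 for Mir132 and 241 for Mir21a. Detection here means 10 or more reads in both replicates. The Mir21a hairpin has 92 bases, 45.7% G or C, and a folding energy of -46.2 kcal per mol. No 20-base stretch of any of the 3 hairpins occurs in another of the 2202 miRNA genes. The longest stretch that Mir21a shares is 15 bases, with Mir21c, and those of Mir132 and Mir212 are 11 and 12 bases. The counts of the 3 genes are therefore not divided with an annotated near-copy, although matches elsewhere in the genome were not searched.

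All 3 genes lie on chromosome 11. Mir212 (ENSMUSG00000065590.1) occupies chr11:75173388-75173478 and Mir132 (ENSMUSG00000065537.2) chr11:75173682-75173747, both on the plus strand of mm10. A gap of 203 bases separates them. Both lie in the first intron of the noncoding gene 1700016P03Rik, Mir212 starting 828 bases and Mir132 1122 bases after the start of that gene. Mir21a (ENSMUSG00000065455.1) occupies chr11:86584067-86584158 on the minus strand. It overlaps exon 12, the last exon of Vmp1, in the untranslated region after the stop codon. Vmp1 encodes a membrane protein of autophagy, and Mir21a is known to be transcribed also from a promoter of its own inside that gene. Of the 2202 miRNA genes 137 (6.22%) are on chromosome 11, and of the 356 detected genes 30 (8.43%).

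**Figure D1:**
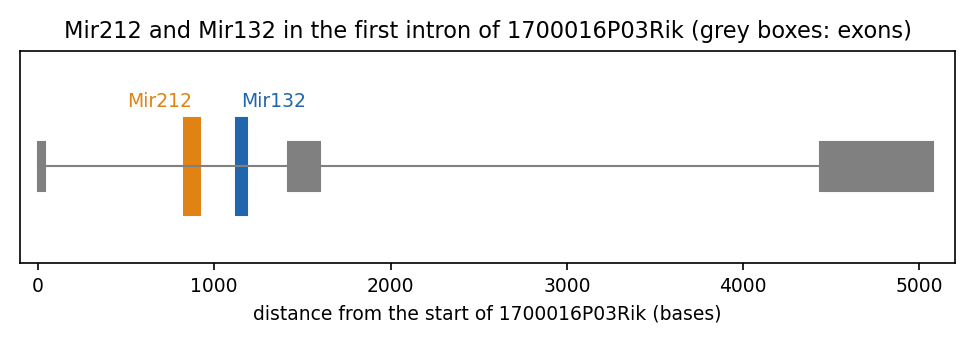
Map of the noncoding gene 1700016P03Rik, with distance in bases from its annotated start on the horizontal axis, exons as grey boxes and the hairpins of Mir212 and Mir132 as coloured boxes. Both hairpins lie in the first intron, 203 bases apart, with Mir212 nearer to the start.

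Reads were counted per miRNA gene, and the column used here, called the strand column, is the one that by its values holds reads of a single strand, the strand of the gene for these 3 genes. It held 3635851 reads on miRNA genes in replicate 1 and 6924829 in replicate 2, a ratio of 1.90. Levels are given as CPM, reads per 1000000 of these miRNA-gene reads, with mean ± SD over the 2 libraries. A small RNA read stands for a whole molecule, so levels were not divided by length, but the efficiency of adapter ligation differs between sequences and limits comparisons between genes. The labelled tissue was checked against miRNA markers. Mir375 and the miR-7 genes, known from endocrine cells, summed to 50709 CPM in replicate 1 and 48363 CPM in replicate 2, and Mir202, known from adrenal cortex and gonads, stood at 32.5 and 19.8 CPM. The markers of liver, kidney and striated muscle, 12 genes, each stayed at or below 108 CPM. Mir122 of liver, at 78.1 and 108 CPM, was above Mir202. Mir192 and Mir194-2 of kidney, at 29.2 and 16.8 CPM and at 26.4 and 15.7 CPM, were close to Mir202. The level of Mir202 thus does not set the gland apart from these tissues. Of the 12 genes 5 had no read, all muscle markers with near-copies, whose multimapping reads were not counted. Bulk tissue was sequenced, so fewer cells of a type and less RNA per cell cannot be told apart.

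Mir21a was one of the abundant miRNAs of the gland. It had 47287 reads in replicate 1 and 194392 reads in replicate 2. Its level was 13006 CPM in replicate 1, rank 22 of all genes, and 28072 CPM in replicate 2, rank 12. The mean was 20539 ± 10653 CPM (SD, n = 2), rank 15. Its share of miRNA-gene reads was 1.30% in replicate 1 and 2.81% in replicate 2, with exact Clopper-Pearson intervals (95%) of 1.29 to 1.31% and of 2.79 to 2.82%. These intervals cover counting error only, as amplified reads with no molecular identifiers are not independent.

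Mir132 was at an intermediate level. It had 3655 and 9942 reads, or 1005 CPM in replicate 1 (rank 76) and 1436 CPM in replicate 2 (rank 62). The mean was 1220 ± 304 CPM (SD, n = 2), rank 69. The same intervals of its share were 0.0973 to 0.104% around 0.101% in replicate 1 and 0.141 to 0.146% around 0.144% in replicate 2. They do not overlap.

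Mir212 was low but detected. It had 208 reads in replicate 1 and 195 in replicate 2, fewer in the library of greater depth. The level was 57.2 CPM in replicate 1 (rank 212) and 28.2 CPM in replicate 2 (rank 233), with a mean of 42.7 ± 20.5 CPM (SD, n = 2), rank 223. Its share was 0.00572% of reads in replicate 1, with an interval of 0.00497 to 0.00655%, and 0.00282% in replicate 2, with an interval of 0.00243 to 0.00324%. The limit that an absence of reads sets, 3 reads, is 0.825 CPM in replicate 1 and 0.433 CPM in replicate 2, so Mir212 was far above the limit of detection in both. The order Mir21a above Mir132 above Mir212 was the same in both libraries, and no value of a gene overlapped that of the next.

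**Figure D2:**
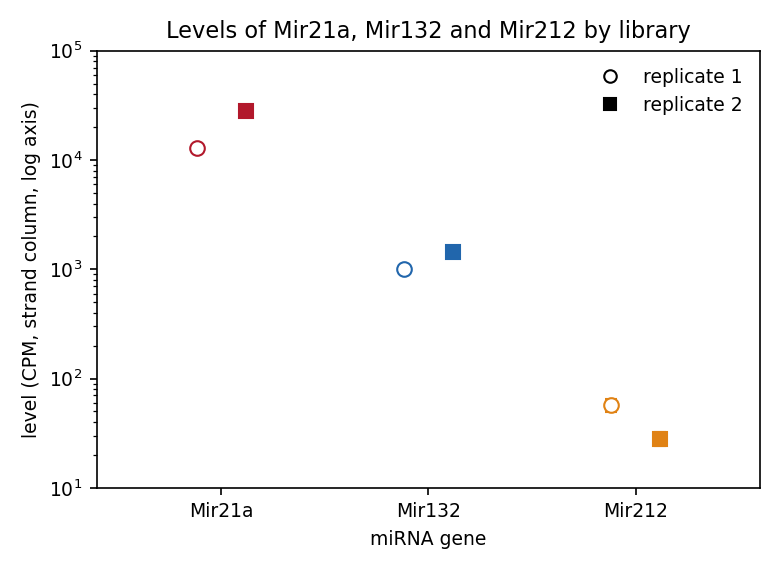
Level in CPM (log axis) of Mir21a, Mir132 and Mir212 in replicate 1 (open circles) and replicate 2 (filled squares), with exact 95% counting intervals that are mostly smaller than the symbols. Mir21a and Mir132 are higher in replicate 2 and Mir212 is lower, while the order of the genes is the same in both libraries.

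The strand column was checked against the column that holds reads of both strands. Its counts were 47288 and 194392 for Mir21a, 3655 and 9942 for Mir132, and 208 and 197 for Mir212. On the other strand there were 1 and 0 reads for Mir21a, 0 and 0 for Mir132, and 0 and 2 for Mir212. The members thus differed between the columns by at most 2 reads, and none overlaps a miRNA gene of the opposite strand.

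The comparison of Mir132 with Mir212 asks how far the products of a common transcript differ in level. Mir132 took 94.6% of the 3863 reads of the pair in replicate 1 (95% interval 93.9 to 95.3%, exact) and 98.1% of the 10137 reads in replicate 2 (interval 97.8 to 98.3%). For each Mir212 read there were 17.6 Mir132 reads in replicate 1 (interval 15.3 to 20.3) and 51.0 in replicate 2 (44.2 to 59.1), a mean ratio of 34.3 ± 23.6 (SD, n = 2). The excess of Mir132 was thus present in both libraries, while its size differed.

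The ratio was 2.90 times as large in replicate 2 as in replicate 1 (conditional exact 95% interval 2.37 to 3.56), a difference of 1.54 on the log2 scale. Fisher's exact test of gene by library, two-sided and the only test of this kind made, gave p = 5.17e-25. This ratio needs no library total, so scaling cannot change it. The test allows for counting error and compares these 2 libraries, not conditions. The hairpins also differ in G and C content, so the relation of hairpin content to the library difference is given. The mature strands of the pair are closer in content, at 50% for miR-132-3p and 54.5% for miR-212-3p. The relation of mature-strand content to the library difference was not tested. Across 356 detected genes, which share the same 2 libraries, Spearman's rho between hairpin G and C content and the log2 ratio of the libraries was 0.03, and the median log2 ratio was -0.24, -0.18 and -0.18 in bins of lowest (119 genes), middle (118) and highest (119) content.

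Neighbouring miRNA genes show how much such ratios vary. The strand column held 111 pairs of consecutive detected genes on the same strand within 10 kb. The log2 ratios of the libraries differed within the pair by 1.54 for Mir212 and Mir132, against a median of 0.46 over the 111 pairs. A difference at least as large was found in 9 of the 111 pairs, this pair included, and in 5 of the 81 pairs in which all 4 counts were at least 100 reads. Called in opposite directions were 26 of the 111 pairs (23.4%), among them Mir96 with Mir183 and Mir27a with Mir24-2. Over all 455 genes tested, 16.9% were called higher and 35.6% lower in replicate 2. The share of opposite calls among unrelated genes was not computed, so 23.4% is not read as a trait of neighbours. Whether the genes of the other pairs share a transcript was not checked. In level, Mir132 and Mir212 were 4.87 apart on the log2(CPM + 1) scale, against a median of 2.44, and 19 of 111 pairs were at least as far apart. The pair is therefore at the wide end of the range, with others beyond it. Pairs of a cluster overlap in their genes and are not independent.

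**Figure D3:**
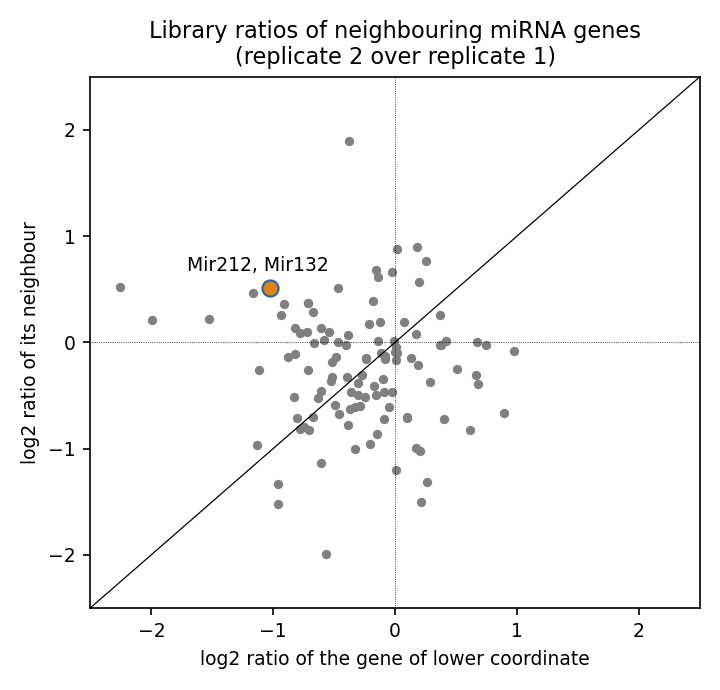
Log2 ratio of replicate 2 over replicate 1 for the gene of lower coordinate (horizontal) and its neighbour (vertical) in the 111 pairs of detected neighbours, at most 10 kb apart and transcribed in the same direction. The line marks equal ratios, and the pair of Mir212 and Mir132, drawn in colour, lies in the quadrant where the first gene is lower and the second higher in replicate 2.

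The last comparison was of the libraries themselves. Each gene with at least 10 reads in both libraries together was tested with Fisher's exact test, two-sided, with Benjamini-Hochberg adjustment over all 455 genes tested. At this depth 239 genes (52.5%) had an adjusted p under 0.05, 77 (16.9%) higher and 162 (35.6%) lower in replicate 2. The balance rested on scaling, as TMM normalization gave 112 higher and 125 lower, and DESeq2 size factors gave 118 and 121. TMM raised the median log2 ratio of the detected genes by 0.14, from -0.19 to -0.05. All 3 members were called, which says little where 52.5% of the genes are called.

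Mir21a was 2.16-fold higher in replicate 2 (exact 95% counting interval 2.14 to 2.18), a log2 ratio of 1.11, and its adjusted p by Fisher's exact test was too small to be represented as a number. Among the 356 detected genes 30, Mir21a included, had a log2 ratio at least as large in either direction, against a median size of 0.40. With TMM normalization the log2 ratio of Mir21a was 1.25. The genes nearest to Mir21a in level did not differ in this way. These were Mirlet7e, at 13651 and 16336 CPM in replicates 1 and 2, Mir26b, at 21060 and 21275 CPM, and Mir10b, at 17046 and 16438 CPM. Nearness was the Euclidean distance of log2(CPM + 1) over the 2 libraries, and was 0.78, 0.80 and 0.87 for them. These distances are larger than those of the nearest genes of Mir132 and Mir212, so none of these genes lay close to Mir21a. Mirlet7e had no read in the column of both strands.

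Markers of other cell types that can carry miR-21 are given beside this difference. The leukocyte list (Mir142, Mir223, Mir150, Mir155 and Mir146) had 5 of 5 genes detected and summed to 2281 CPM in replicate 1 and 2259 CPM in replicate 2, with 1 gene higher and 4 lower in replicate 2 by Fisher's exact test, where 16.9% and 35.6% of all 455 genes were so called. The higher gene was Mir146, the largest part of the sum, at 1134 and 1405 CPM. The 4 lower genes ran from Mir150, at 567 and 430 CPM, to Mir223, at 91.0 and 73.2 CPM. The red cell list (Mir451a, Mir144 and Mir486), 3 of 3 detected, summed to 446 and 190 CPM, with 2 genes lower and 1 not called. Mir126a of endothelium stood at 56684 and 41532 CPM, and the smooth muscle genes Mir143 and Mir145a summed to 23925 and 21489 CPM, all lower in replicate 2. In the column of both strands Mir126a had only 2 and 10 reads, and Mir142, Mir451a and Mir486 had none. The levels of these markers thus rest on the strand column alone. The epithelial list, with 5 of 7 genes detected, summed to 843 and 935 CPM. Most of this was Mir203, at 792 and 897 CPM and higher in replicate 2. Mir429, at 9.90 and 2.02 CPM, was lower in replicate 2, and 3 epithelial genes were not called. The neuronal list, with 2 of 9 detected, summed to 675 and 530 CPM, and of its genes Mir124a-1, Mir124a-2, Mir9-1 and Mir9-2, which have near-copies, were at 0. Most of that sum was Mir137, at 640 and 470 CPM and lower in replicate 2. The other neuronal genes tested were higher in replicate 2, Mir128-1 at 31.6 and 52.4 CPM (1.66-fold) and Mir128-2 at 2.48 and 7.22 CPM (2.92-fold, from 9 and 50 reads). The part of these cells in its difference was not tested.

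Mir132 was 1.43-fold higher in replicate 2 (exact 95% counting interval 1.37 to 1.48), or 0.51 on the log2 scale (Fisher's exact test, adjusted p = 9.37e-79). A ratio of this size or larger in either direction was found in 146 of 356 detected genes. Its nearest genes were Mir146, at 1134 and 1405 CPM (distance 0.18), Mir455, at 826 and 1330 CPM (0.30), and Mirlet7c-2, at 880 and 1179 CPM (0.34). All of these were higher in replicate 2 as well, which the distance favours.

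Mir212 was 2.03-fold lower in replicate 2 (exact 95% counting interval 1.66 to 2.48), a log2 ratio of -1.02 (Fisher's exact test, adjusted p = 6.85e-12). A ratio of this size or larger was found in 35 of 356 detected genes. Its nearest genes were Mir92-2, at 53.9 and 27.7 CPM (distance 0.09), Mir467c, at 52.0 and 31.5 CPM (0.21), and Mir450b, at 48.7 and 27.9 CPM (0.23). With TMM normalization the log2 ratios were 0.66 for Mir132 and -0.88 for Mir212, and with DESeq2 size factors 0.68 and -0.85, so the directions were the same under each scaling.

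None of the 3 differences was called when the spread between the libraries entered the test. The exact test of edgeR, run with 1 dispersion for all genes (a biological coefficient of variation of 32.2%), gave unadjusted p of 0.0990 for Mir21a, 0.441 for Mir132 and 0.141 for Mir212, with an adjusted p of 1 for each. It called 3 of 455 genes (0.659%), namely Mir26a-2, Mir185 and Mir129-2, named here after their values were seen, and 23 genes were at an unadjusted p under 0.05. That dispersion was estimated from the same 2 libraries with no term for the library, so the differences tested are part of it. Few calls were therefore likely, and the absence of a call says little about a member. The estimate used TMM factors, and the test did not. The differences of Mir21a, Mir132 and Mir212 thus exceed counting error and were not called against the spread that miRNA genes in general showed between these libraries.

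**Figure D4:**
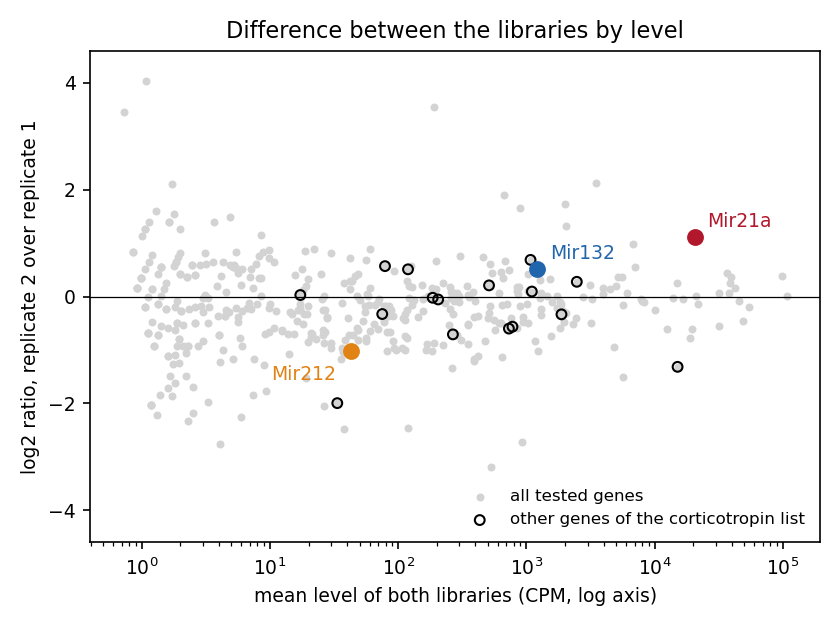
Log2 ratio of replicate 2 over replicate 1 against the mean level in CPM (log axis) for the 455 genes tested (grey), with Mir21a, Mir132 and Mir212 in colour and the other 16 genes of the corticotropin list as open circles. Mir21a (1.11) and Mir132 (0.51) lie above 0 and Mir212 (-1.02) below it.

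Other miRNAs were taken from a list of 19 genes that holds the 3 members, called the corticotropin list. It takes in miRNAs reported to respond to corticotropin, angiotensin or cyclic AMP in adrenal cells. It also takes in miRNAs reported to target the HDL receptor or steroid hydroxylases. The list was made from general knowledge with earlier results of these data known, so its counts are not those of a corticotropin-responsive set alone. All 19 were detected. By Fisher's exact test 8 were higher in replicate 2, 8 were lower and 3 were not called, beside 16.9% higher and 35.6% lower over all genes tested, and the exact test of edgeR called 0 of 19 after adjustment and 1, Mir96, at an unadjusted p under 0.05. With only the 356 detected genes tested, 76 were higher and 158 lower in replicate 2, and the list again had 8 higher and 8 lower. The median log2 ratio of the list was -0.02, against -0.18 over the 455 genes tested. Without the 3 members, 6 of 16 were higher and 7 lower, again beside 16.9% and 35.6% of all genes, with a median of -0.04. Near-copies may undercount 7 of the 19 genes, namely Mir27a, Mir24-1, Mir24-2, Mir125b-1, Mir125b-2, Mir138-1 and Mir138-2.

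The miR-183 cluster genes were reported to rise with corticotropin in rat adrenals together with Mir132 and Mir212. Mir182 was at 930 CPM in replicate 1 and 629 CPM in replicate 2, and Mir96 at 53.6 and 13.4 CPM, both lower in replicate 2. Mir183 was at 474 and 549 CPM, higher in replicate 2. The genes of this reported group thus differed in both directions between the libraries, with Mir132 and Mir183 higher and Mir212, Mir182 and Mir96 lower.

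Among the genes reported to fall with corticotropin are Mir214, Mir503 and Mir27a, which need not be all of them. Mir214 was at 881 and 582 CPM, lower in replicate 2. Mir503 was at 98.5 and 140 CPM and Mir27a at 1068 and 1140 CPM, both higher in replicate 2. Mir27a was no longer called when all reads of a library served as the total. The genes named here, too, did not differ in a common direction.

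miR-125a and miR-455 have been reported to repress the HDL receptor SR-BI, which supplies cholesterol to adrenal cells. Mir125a was at 21565 CPM in replicate 1 and 8671 CPM in replicate 2, a log2 ratio of -1.31, opposite in direction to Mir21a at a like level. Mir455 was at 826 and 1330 CPM, higher in replicate 2. The near-copies Mir125b-1, at 209 and 201 CPM, and Mir125b-2, at 187 and 185 CPM, were not called, and the sign of their log2 ratio turned with TMM or DESeq2 scaling. miR-24 has been reported to act on the steroid hydroxylases CYP11B1 and CYP11B2. Of its genes, Mir24-1 was at 63.5 and 94.4 CPM and Mir24-2 at 332 and 203 CPM, called in opposite directions, and neither had a read in the column of both strands.

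Of the remaining genes, Mir34c was at 2094 and 1663 CPM and Mir138-1 at 83.6 and 66.7 CPM, both lower in replicate 2. The log2 ratio of Mir138-1 was -0.33 and stayed negative with TMM (-0.18) and DESeq2 scaling (-0.16), where it was no longer called. Mir320 was at 2238 and 2711 CPM, higher in replicate 2. Mir138-2, at 17.1 and 17.5 CPM, was not called. Over the 19 genes the mean level ran from 17.3 CPM for Mir138-2 to the 20539 CPM of Mir21a, with Mir132 the fifth and Mir212 the third from the lowest.

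**Figure D5:**
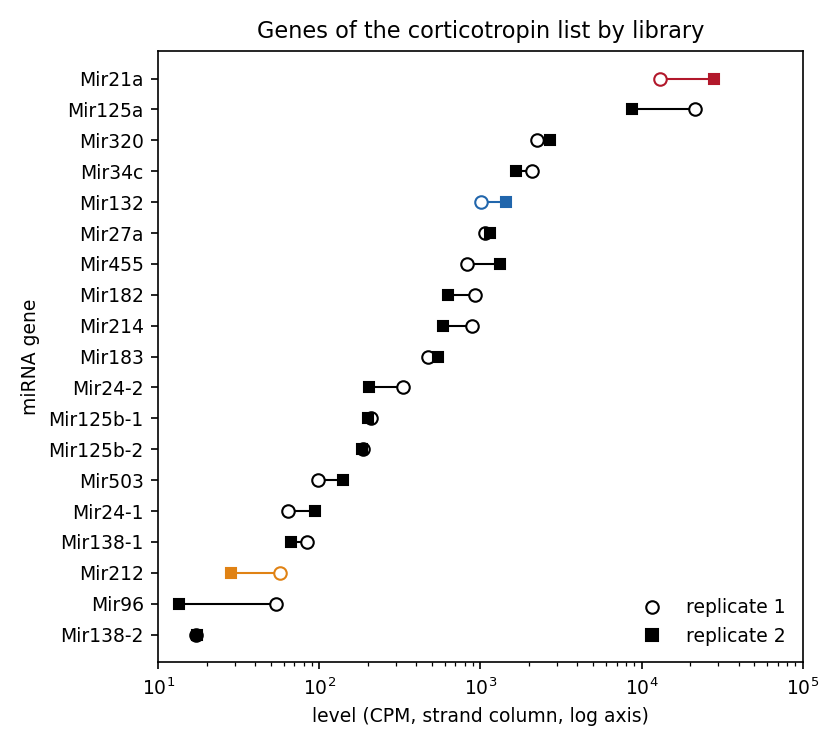
Level in CPM (log axis) of the 19 genes of the corticotropin list in replicate 1 (open circles) and replicate 2 (filled squares), ordered by mean level, with Mir21a, Mir132 and Mir212 in colour. Mir21a and Mir125a lead and lie in opposite order between the libraries, and Mir212 is among the lowest.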

How the data were processed

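The authors deposited raw counts per miRNA gene, 1 table for each of the 2 libraries, on assembly mm10 with GENCODE M21 per the deposited notes. Which aligner, counter and adapter trimming were used is not given in the sources used here. The 3 count columns carry no names, and what they hold was read from the values. Entries that name no gene were left out of totals: unmapped reads (16.1% and 16.5% of all 7774567 and 15391360 reads in replicates 1 and 2) and multimapping reads (31.6% and 33.6%) are the largest, so miRNAs with several genomic copies are undercounted.

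Symbols and positions came from GENCODE M21. CPM used the strand-column total, log2 ratios an offset of 0.5 counts. Fisher's exact test was checked on simulated counts with known fold changes and counting error only. That check does not cover the spread between libraries. With 1 group of 2 libraries no quasi-likelihood fit was possible, so edgeR's exact test with the common dispersion of an intercept-only model was the alternative. Others were TMM and DESeq2 size factors (exact binomial test), all reads as the total, the both-strand column, other filters and an offset of 1 count. The members, lists and tests were chosen with earlier results of these data known. Genes named are the 3 members, the list genes, the 3 nearest genes per member, and genes sharing a seed, a locus or a 20-base stretch with a member. Outside this rule, Mir21b and the 3 genes called by edgeR were named after their values were seen, and cell type markers come from fixed lists. Software was RNAfold 2.7.2, Python 3.11.15 with scipy 1.17.1 and pandas 2.3.3, and R 4.3.3 with DESeq2 1.42.0 and edgeR 4.0.16.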

Additional observations from a re-analysis of the deposited data

How the results depend on the processing

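The log2 ratios of Mir21a (1.11), Mir132 (0.51) and Mir212 (-1.02) had the same direction and side of the threshold under the both-strand column, TMM, DESeq2 size factors, all reads as the total, both other filters and the other offset. Under the exact test of edgeR with its common dispersion all 3 lost the call (adjusted p = 1 each), calls over all genes went from 239 to 3 (1 higher, 2 lower) and calls in the corticotropin list to 0 higher and 0 lower. DESeq2 size factors moved the genes higher in replicate 2 from 77 to 118. With all reads as the total, the levels of Mir21a, Mir132 and Mir212 became 9356, 558 and 19.7 per 1000000 reads, and on the other strand they were 0.138, 0 and 0.144 CPM. Leaving out either library gave 13006 to 28072 CPM for Mir21a, 1005 to 1436 CPM for Mir132, 28.2 to 57.2 CPM for Mir212, and 17.6 to 51.0 for the ratio of Mir132 to Mir212. Differences between the libraries have no value with a library left out. No paired analysis was possible because there is 1 group. At 195 to 208 reads, Mir212 rests on the least depth of the members.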
